A study of Mus musculus with 2 samples.

Results

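The genes described here encode growth factors and receptors that promote the growth of the oligodendrocyte lineage and the wrapping of axons with myelin: Pdgfa, Igf1, Igf1r, Nrg1, Erbb2, Erbb4, Fgf2, Fgfr2, Bdnf and Ntrk2. They were taken as a named list of 10 genes out of 18194 genes on the array, each through the probe sets that the platform annotation pairs with that gene alone, which gave 28 probe sets. RNA had come from the cerebrum of lag mutant mice, homozygous for a spontaneous recessive splice site mutation of the kinesin gene Kif14 and called laggard, and of wild-type mice, both at postnatal day 14. The line had been backcrossed to C57BL/6J after arising on a mixed background, so flanking DNA of the founder strains can remain in the mutant. Each genotype was 1 sample on 1 Affymetrix mouse array. The number of mice behind a sample is not stated in the sources used here, so neither a spread between mice nor a p-value can be given.

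Oligodendrocytes are the cells that form myelin in the central nervous system, and they arise after birth in large numbers from dividing precursors. Platelet-derived growth factor A, which neurons and astrocytes release, drives the division of precursors through the receptor encoded by Pdgfra. Fibroblast growth factors keep precursors dividing, insulin-like growth factor 1 supports survival and the amount of myelin made, and neuregulins on axons and brain-derived neurotrophic factor act on the lineage through the ERBB receptors and TrkB.

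None of the measured genes differed 2-fold between the genotypes. Of the 10 genes, 8 had a signal above background on at least 1 array, and 0 of these 8 were at least 2-fold lower in the lag mutant while 0 were at least 2-fold higher, against 1.02% lower and 0.762% higher among all 13903 measured genes. At 1.5-fold the counts were again 0 lower and 0 higher, against 3.53% and 4.31% of all measured genes. Counts of 0 among 8 genes are what these background shares allow, so they do not set the list apart. The log2 ratios, mutant over wild-type, ran from -0.51 for Igf1 to 0.15 for Erbb2, with a median of -0.10 against 0.01 for all measured genes. A signal counted as above background when it reached the 95th percentile of 128 probe sets of gene families that brain tissue is not known for, olfactory and taste receptors among them, which was 49.4 on the lag mutant array and 48.6 on the wild-type array. Where several probe sets read a gene, the brightest over both arrays stood for it, and signals under background were raised to that level.

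The direction of these small differences was uneven. By gene, 5 of the 8 were lower in the mutant, against 48% of all measured genes. Of the 23 probe sets of these genes above background, 18 were lower, against 48.8% of all 25259 probe sets above background. Probe sets of 1 gene read the same RNA, so 18 of 23 is not a count of independent measurements, and 11 of the 23 belong to Igf1r and Ntrk2. No probe set of the list differed 2-fold, against 2.16% of all, and their log2 ratios lay between -0.55 and 0.19.

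**Figure D1:**
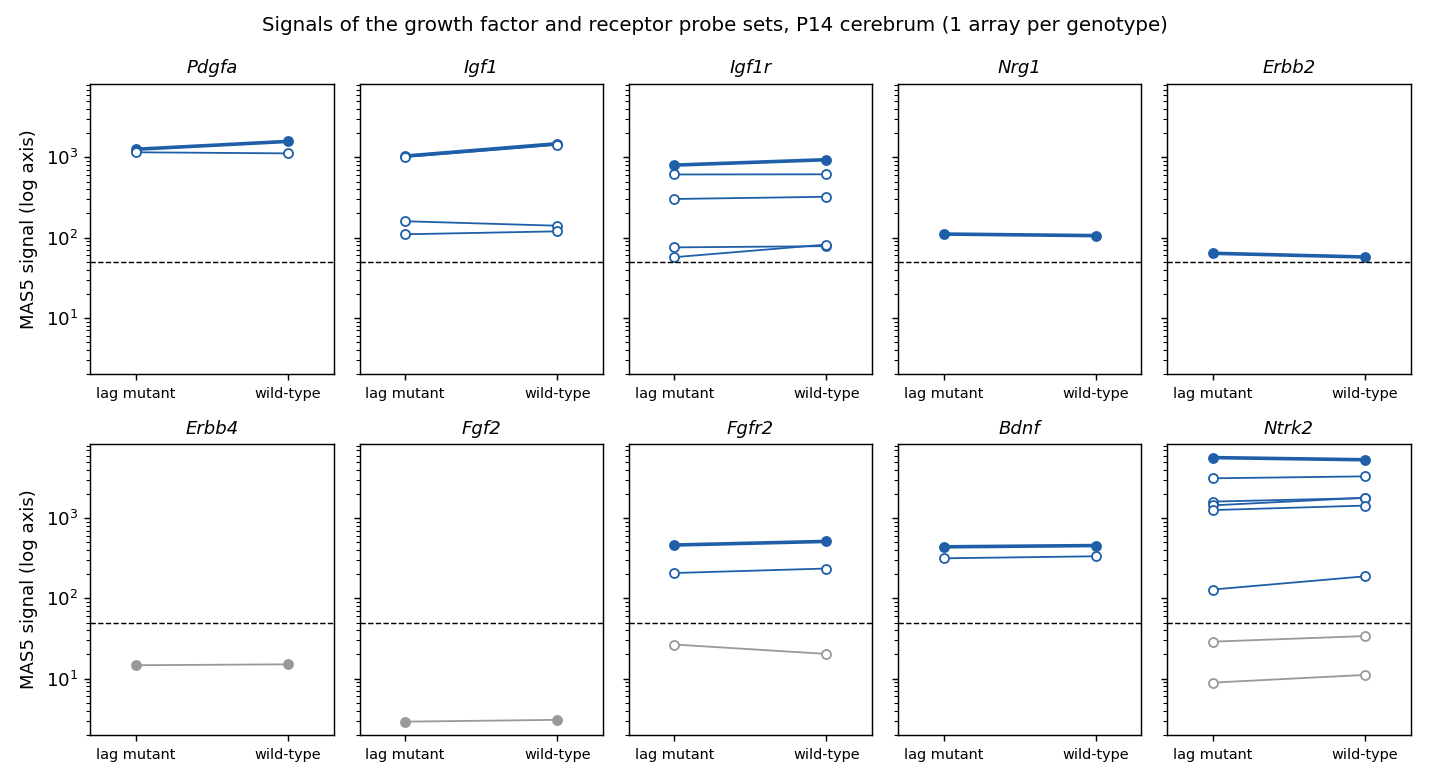
MAS5 signal (log axis) of every probe set of the 10 genes on the lag mutant and the wild-type array, 1 array each, with a line joining the values of a probe set. Filled circles mark the probe set used for the gene, grey those under background (dashed line) on both arrays. The lines are close to level, and the single probe sets of Erbb4 and Fgf2 lie under background.

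Sequences are shown for 2 of the genes, from the RefSeq start windows of GRCm38.p6, which hold 250 bases before and 50 after a transcript start. Igf1 is shown because it had the largest difference on the list by the probe set that stands for each gene, and Bdnf because its transcripts begin at several starts. Igf1 had 1 window in the table, chr10:87860861-87861160 on the plus strand, and Bdnf had 7. Capitals in the Igf1 window mark a match to CCAAT, searched on both strands, which begins 142 bases before the start and is held by 37.4% of all 32851 windows. The Bdnf window printed, chr2:109692186-109692485 on the plus strand, is the 1 of 16 windows of these genes with a match to TGACGTGA on either strand, a variant of the cAMP response element. Capitals mark it in its reverse orientation, 38 bases before the start. Of all windows 0.441% hold this variant and 1.79% hold the full palindrome TGACGTCA, which none of the 16 does.
Igf1: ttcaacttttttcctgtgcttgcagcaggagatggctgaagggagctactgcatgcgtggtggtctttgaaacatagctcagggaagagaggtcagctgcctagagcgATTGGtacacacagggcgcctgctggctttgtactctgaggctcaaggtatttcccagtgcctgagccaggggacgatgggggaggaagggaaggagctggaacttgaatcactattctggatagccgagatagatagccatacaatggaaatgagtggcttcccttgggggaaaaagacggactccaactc
Bdnf: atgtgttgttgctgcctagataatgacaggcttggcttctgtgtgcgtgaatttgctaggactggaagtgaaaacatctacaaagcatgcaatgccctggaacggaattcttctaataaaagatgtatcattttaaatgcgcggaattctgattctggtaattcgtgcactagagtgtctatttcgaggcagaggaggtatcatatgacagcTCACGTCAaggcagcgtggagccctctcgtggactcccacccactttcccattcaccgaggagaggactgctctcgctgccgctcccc
These matches describe the letters of the windows only.

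Pdgfa, the ligand that drives precursor division, differed little and unevenly. Its probe set of highest signal read 1261 in the lag mutant and 1580 in the wild-type, 1.25-fold lower, a log2 ratio of -0.33. Its other probe set read 1156 in the mutant and 1121 in the wild-type, slightly the other way. The 2 probe sets thus differed in direction, with a log2 ratio of 0.04 for the dimmer. Among the 3476 measured genes of the brightest of 4 groups by mean signal, 8.08% differed at least as much as the first probe set of Pdgfa, as a description of these arrays.

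The receptor for this ligand is not on the list but belongs to its family. Pdgfra, which marks oligodendrocyte precursors, read 1481 in the lag mutant and 2508 in the wild-type, 1.69-fold lower. Its dim probe sets were close to background. The mean over its probe sets gave a log2 ratio of -0.26, against -0.76 by the bright one. In bulk tissue fewer cells of a type and less RNA per cell cannot be told apart. Among the other family members, the receptor gene of pericytes, Pdgfrb, read 995 in the mutant and 821 in the wild-type, and the ligand genes Pdgfb and Pdgfc read 752 and 568 in the mutant against 685 and 444 in the wild-type. None of the 6 measured genes of the family differed 2-fold.

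Igf1, which differed most when the brightest probe set stood for each gene, was lower in the mutant by its bright probe sets. The brightest read 1038 in the lag mutant and 1478 in the wild-type, 1.42-fold lower, and another read 1010 in the mutant and 1433 in the wild-type. The 2 dim probe sets did not share this difference, reading 160.0 and 110.0 in the mutant against 140.7 and 119.7 in the wild-type. The log2 ratio was -0.51 by the brightest probe set and -0.24 as the mean of all 4. In the group of 3475 genes with similar mean signal, 4.75% differed at least as much as the brightest probe set of Igf1. The SD of the log2 ratio over that group was 0.29.

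Igf1 RNA is made by some neurons and by microglia, so the markers of these cells are given beside it. The microglia list was higher in the mutant, at 9 of 10 measured genes against 52% of all measured genes, none of the list 2-fold. Its median log2 ratio was 0.43, with a summed signal of 12664 in the mutant against 9995 in the wild-type. The log2 ratios ran from -0.07 for P2ry12, at 716 in the mutant and 750.5 in the wild-type, to 0.77 for Ctss, at 2530.0 in the mutant and 1484 in the wild-type. Csf1r, the brightest of the list, read 4511 in the mutant and 4170 in the wild-type, and Cx3cr1 686 in the mutant and 498 in the wild-type. Of 12 inhibitory neuron markers, 8 were lower and 4 higher, against 48% lower and 52% higher among all measured genes. Their median was -0.28, with a summed signal of 25726 in the mutant and 27433 in the wild-type. Vip, the neuropeptide of a class of interneurons, was the 1 of them past 2-fold, at 307 in the mutant and 1013 in the wild-type. Among all measured genes 1.02% were 2-fold lower. Of 10 measured excitatory cortical neuron markers 4 were lower and 6 higher, against 48% and 52% of all measured genes. None of the 10 differed 2-fold, and their median was 0.08. The part of these cells in the Igf1 values was not tested.

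Igf1r, the receptor of Igf1, was lower by all 5 of its probe sets, most of them by little. The probe set used read 800.2 in the lag mutant and 935 in the wild-type, 1.17-fold lower. The next read 612 in the mutant and 615 in the wild-type and another 303 in the mutant and 323 in the wild-type. A dimmer probe set of Igf1r read 75.6 in the mutant and 78.2 in the wild-type. The largest difference, a log2 ratio of -0.52, came from a dim probe set at 57.1 in the mutant and 81.9 in the wild-type, not far above background. In the same brightness group as Igf1, 29.2% of genes differed at least as much as the probe set used.

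The rest of the insulin-like growth factor family was mostly close to level. With Igf1 and Igf1r counted, none of its 14 measured genes differed 2-fold, and their median log2 ratio was 0.05. Igf2, the second ligand, read 4236 in the lag mutant and 3569 in the wild-type. The binding protein gene Igfbp2 read 4679 in the mutant and 3823 in the wild-type, and Igfbp5 3686 in the mutant and 3855 in the wild-type. Meninges and choroid plexus also make Igf2 and Igfbp2, and markers of these tissues are given beside them. Of 11 pericyte and meningeal fibroblast markers 10 were higher, against 52% of all measured genes, with a median of 0.28. Lum, at 526 in the mutant and 259 in the wild-type, was the 1 of the 11 past 2-fold, against 0.762% of all measured genes. The summed signal of the 11 was 21045 in the mutant against 16543 in the wild-type. Of 7 choroid plexus markers 4 were higher and 3 lower, against 52% of all measured genes higher, with a median of 0.36. Folr1, at 474 in the mutant and 206 in the wild-type, was the 1 of the 7 past 2-fold. Ttr, by far the brightest, was slightly lower, at 20819 in the mutant and 22753 in the wild-type. It made up most of the summed signal, which was 22607 in the mutant against 24093 in the wild-type. The part of these tissues in the Igf2, Igfbp2 and Pdgfrb values was not tested, and Pdgfrb is itself on the pericyte list. Irs1, an adaptor of the receptor, read 1832 in the mutant and 2091 in the wild-type. The binding protein gene Igfbp3, at 619 in the mutant and 394 in the wild-type, and the adaptor gene Irs4, at 896 in the mutant and 566 in the wild-type, passed 1.5-fold. Insr, the insulin receptor gene, differed little, at 529 in the mutant and 507 in the wild-type.

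Nrg1, the axonal ligand of the ERBB receptors, had a single probe set paired with it alone, at 110.8 in the lag mutant and 105.9 in the wild-type, a log2 ratio of 0.06. Nrg1 has many transcript types, and 1 probe set cannot show which of them it reads. Erbb2, the coreceptor that binds no ligand of its own, read 63.8 in the mutant and 57.4 in the wild-type, close to background on both arrays. In the dimmest brightness group 85.8% of genes differed at least as much as Nrg1 and 68.5% at least as much as Erbb2. Erbb4, a receptor of neuregulins that interneurons also carry, read 14.7 in the mutant and 15.1 in the wild-type by its single probe set, under background on both arrays, and no fold change is given.

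This family held the only genes of the 5 growth factor families that passed 2-fold. Erbb3, the receptor partner of Erbb2 in oligodendrocytes, read 61.1 in the lag mutant and 149.6 in the wild-type, 2.45-fold lower, a log2 ratio of -1.29. Nrg2, a second neuregulin, read 238 in the mutant and 81.2 in the wild-type, 2.93-fold higher, but another of its probe sets read 54.3 in the mutant and 62.6 in the wild-type. Both genes lay in the dimmest brightness group, where 3.94% of genes differed at least 2-fold. When background was set at the 99th percentile, Erbb3 was under background on both arrays and Nrg2 was at least 1.52-fold higher. Of the other measured members, Adam10, a protease, read 4478 in the mutant and 3491 in the wild-type, and Bace1, which cleaves neuregulin, 3146 in the mutant and 3035 in the wild-type. Nrg3 read 917 in the mutant and 793 in the wild-type. The 14 measured genes had a median log2 ratio of 0.01.

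Fgf2, the fibroblast growth factor that keeps precursors dividing, could not be measured here. Its single probe set read 2.91 in the lag mutant and 3.07 in the wild-type, under background on both arrays. Fgfr2, the receptor of this family on oligodendrocytes, read 462 in the mutant and 512 in the wild-type by the probe set used and 207 in the mutant and 235 in the wild-type by a second, log2 ratios of -0.15 and -0.19. Another probe set of Fgfr2 was under background on both arrays. The 2 measured probe sets differed in the same direction, and 59.7% of genes of similar mean signal differed at least as much as the first.

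Of the other receptors of the family, Fgfr1 and Fgfr3 were close to level. Fgfr1, also carried by the lineage, read 494.5 in the lag mutant and 495.4 in the wild-type, and Fgfr3, an astrocyte receptor in this tissue, 1783 in the mutant and 1567 in the wild-type. Fgf1, a ligand related to Fgf2, read 512 in the mutant and 510.3 in the wild-type. Fgf9, a neuronal ligand, read 356 in the mutant and 218 in the wild-type, past 1.5-fold, as was Fgfr4, which was under background in the wild-type alone and so at least 1.60-fold higher. Of 17 measured genes of 27 listed none differed 2-fold, with a median of 0.00.

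Bdnf, the activity-regulated ligand of TrkB, was nearly equal in both genotypes. Its 2 probe sets read 439 and 315 in the lag mutant and 455 and 334 in the wild-type, log2 ratios of -0.05 and -0.08. In its brightness group 85.6% of genes differed at least as much. Which of the transcripts from the 7 starts each probe set reads was not determined here.

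Ntrk2 encodes TrkB, the receptor of Bdnf, both as the full-length kinase and as a truncated form that astrocytes make. Its brightest probe set read 5672 in the lag mutant and 5327 in the wild-type, a log2 ratio of 0.09. The next ones were all lower, at 3130, 1605, 1441 and 1259 in the mutant against 3311, 1777, 1793 and 1431 in the wild-type. A dimmer probe set read 128.9 in the mutant and 188 in the wild-type. Of the 8 probe sets of Ntrk2, 6 were measured, and the rest were under background on both arrays. Thus 5 of the 6 measured probe sets were lower and the brightest was higher, and the mean over the 6 gave a log2 ratio of -0.20. The direction for Ntrk2 therefore depends on the probe set, and which form each reads was not determined here. Across 6587 genes with at least 2 measured probe sets the median range between probe sets of a gene was 0.34, against 0.64 for Ntrk2, 0.70 for Igf1, 0.51 for Igf1r, 0.37 for Pdgfa, 0.04 for Fgfr2 and 0.03 for Bdnf.

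The remaining neurotrophin genes did not differ 2-fold. Ntrk3, the receptor of neurotrophin 3, read 911 in the lag mutant and 1284 in the wild-type, a log2 ratio of -0.49. Ngfr, the low-affinity receptor p75, read 227 in the mutant and 163 in the wild-type. Sort1, which sorts neurotrophin precursors, read 2091 in the mutant and 2193 in the wild-type, and Furin, which cleaves them, 354 in the mutant and 372 in the wild-type. The 9 measured genes of this family had a median of -0.05. Over the 5 families, 71 genes were listed beside the 10, of which 52 were measured. Of these 52, 1 was 2-fold lower, 1 was 2-fold higher and 50 were within 2-fold. Among all measured genes 1.02% were 2-fold lower and 0.762% 2-fold higher, so these counts do not set the families apart.

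**Figure D2:**
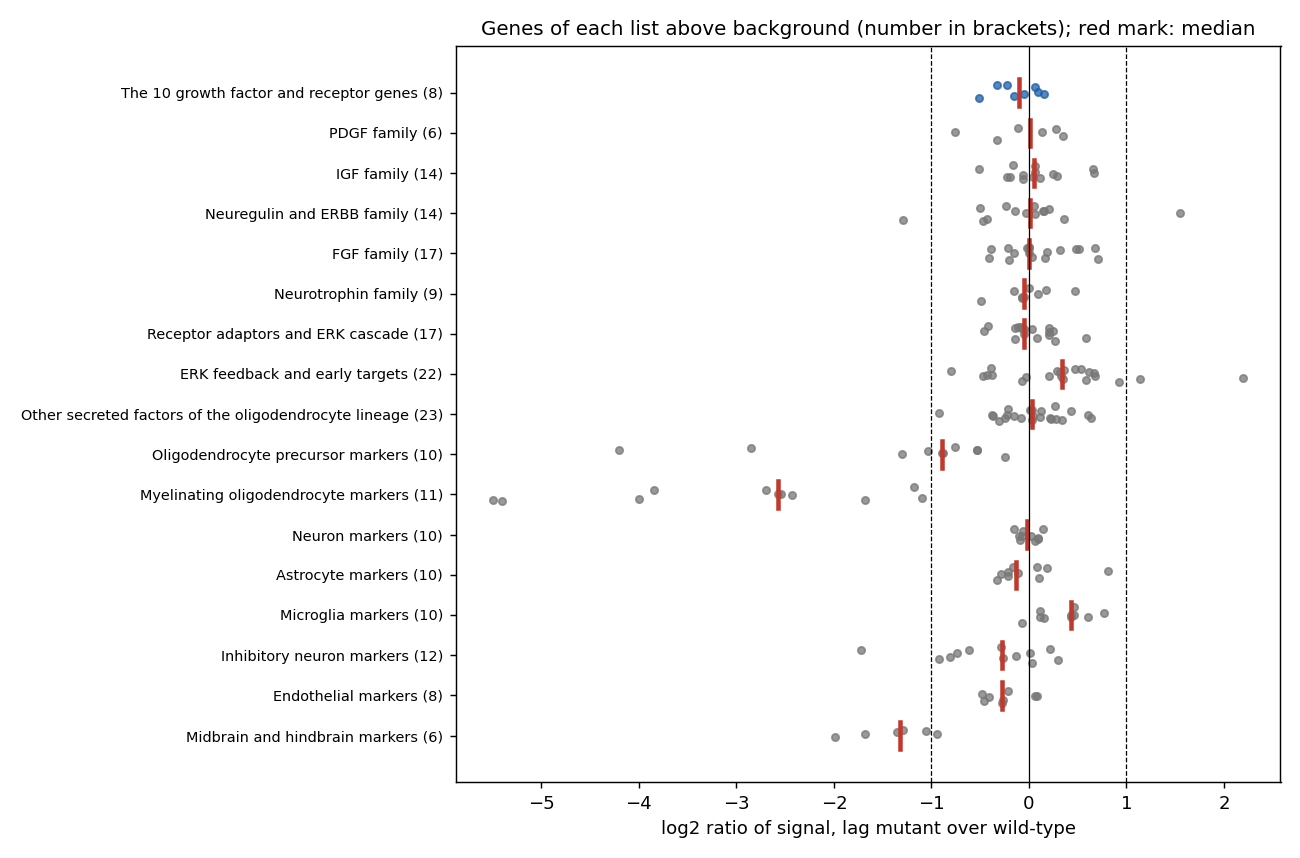
Genes above background in the growth factor lists and in cell type marker lists, placed by their log2 ratio (lag mutant over wild-type). Points stand for genes, red marks for list medians and dashed lines for 2-fold. The 10 genes named at the start have a median of -0.10, and that of the myelinating oligodendrocyte markers is -2.57.

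Below these receptors lie adaptors and the ERK kinase cascade. None of their 17 measured genes differed 2-fold, and their median log2 ratio was -0.05. Map2k1, the kinase that activates ERK, read 3446 in the lag mutant and 3564 in the wild-type, and Fyn, a kinase of oligodendrocyte differentiation, 2740 in the mutant and 3657 in the wild-type. The phosphatase gene Ptpn11 read 2412 in the mutant and 2662 in the wild-type and Nras, a small GTPase, 1967 in the mutant and 2044 in the wild-type. The adaptor gene Frs3 passed 1.5-fold, at 475 in the mutant and 317 in the wild-type.

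Genes that ERK signalling or neuronal activity induces were higher in the mutant more often than lower, with 15 of 22 higher against 52% of all measured genes. Their median was 0.34, or 0.14 when the most decreased probe set stood for each gene. Of the 22, 2 were at least 2-fold higher, against 0.762% of all measured genes, and 0 were 2-fold lower. Npas4, a transcription factor gene of neuronal activity, read 790.2 in the lag mutant and 173 in the wild-type, 4.58-fold higher, and Fos 3437 in the mutant and 1562 in the wild-type, 2.20-fold higher. Both have 1 probe set here. Ier2 and Fosb, also early response genes, were higher by less than 2-fold, at 767 and 79.8 in the mutant against 404 and 50.2 in the wild-type, and so were Egr2 and Junb, at 209 and 279 in the mutant against 145 and 217 in the wild-type. With both arrays scaled to the same median signal Ier2 passed 2-fold as well. Others were level or lower, with Egr1 at 6116 in the mutant and 6441 in the wild-type, Arc at 178.9 in the mutant and 234 in the wild-type, and Nr4a1 at 896 in the mutant and 1564 in the wild-type. Bdnf, which neuronal activity also induces, was 1.04-fold and 1.06-fold lower by its 2 probe sets.

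Most feedback inhibitors of receptor signalling in this list were higher, each by less than 2-fold. Dusp6, an ERK phosphatase, read 2915 in the lag mutant and 2101 in the wild-type. Spry1 and Spry4, both Sprouty inhibitors, read 414 and 428 in the mutant and 269.8 and 284 in the wild-type, each past 1.5-fold. Spry2 read 1386 in the mutant and 865 in the wild-type by its bright probe set, but its dim probe set read 99.2 in the mutant and 134.0 in the wild-type. The phosphatase genes Dusp4 and Dusp5 were lower, at 354 and 129.3 in the mutant against 477 and 179.7 in the wild-type, and Spred1 read 1399.6 in the mutant and 1432 in the wild-type. Etv5, a target of fibroblast growth factor signalling, read 1372 in the mutant and 1073 in the wild-type, while the related target Etv4 read 193.9 in the mutant and 251 in the wild-type.

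**Figure D3:**
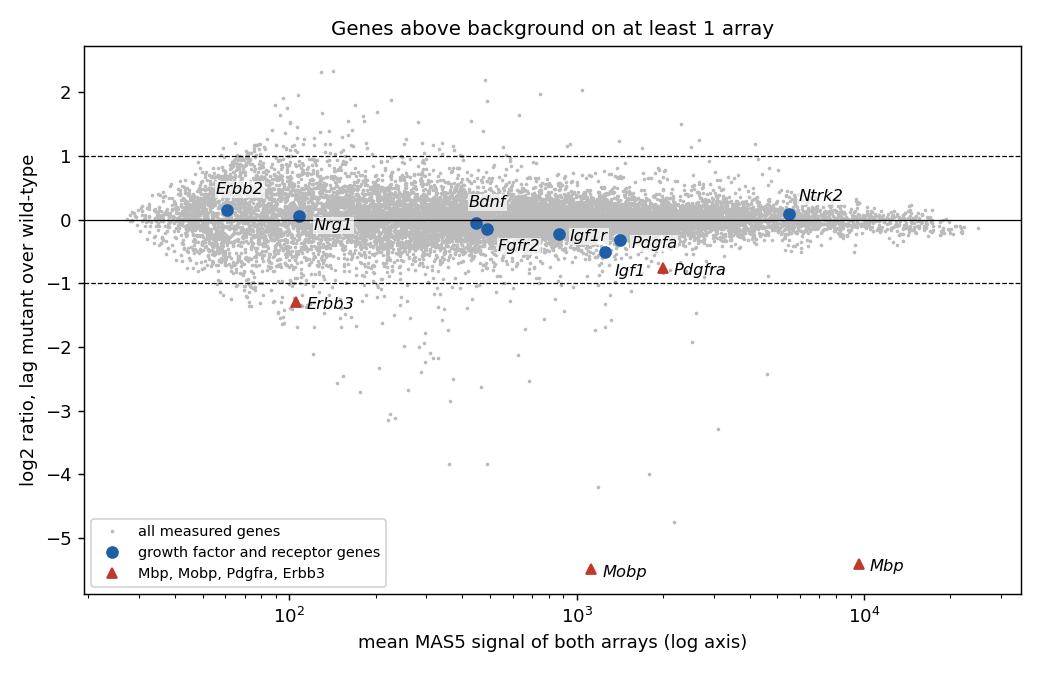
Log2 ratio, lag mutant over wild-type, against the mean MAS5 signal of both arrays (log axis) for the 13903 genes above background on at least 1 array. The growth factor and receptor genes (blue) lie between -0.51 and 0.15, inside the 2-fold lines, while Mbp and Mobp (red) lie below -5.

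The markers of the cells on which these factors act were lower. Each of the 11 measured markers of myelinating oligodendrocytes was lower by 2-fold or more, against 1.02% of all measured genes. The median log2 ratio of the 11 was -2.57, and their summed signal was 2644 in the lag mutant against 35372 in the wild-type. Cnp, a myelin enzyme, read 1434 in the mutant and 7730 in the wild-type. Of 10 precursor markers all were lower and 4 at least 2-fold, against 48% and 1.02% of all measured genes. The median of the 10 was -0.89. The summed signal of the 10 was 13563 in the mutant against 22846 in the wild-type. The log2 ratios ran from -0.25 for Ptprz1, the brightest of the list, to -4.20 for Gpr17. The 4 were Gpr17, Sox10, Cspg4 and C1ql1, which was close to background in the mutant at 50.7. The paper counts Gpr17, Sox10, Olig1 and Olig2 among genes that rise as oligodendrocytes mature. In embryos it reports no significant change in neocortical cells stained for Olig2 or for the protein of Pdgfra. Real-time PCR on whole brain from younger animals likewise gave, by its account, no clear change in RNA of either gene. The paper proposes that precursors form and that their maturation is most likely disturbed. Those ages, and the whole brain samples, differ from the cerebrum at postnatal day 14 read here. Olig2, the lineage transcription factor, read 611 in the mutant and 1134 in the wild-type. Pdgfra is itself 1 of these precursor markers, and Erbb3 is also carried by the lineage. Their log2 ratios of -0.76 and -1.29 stood beside -0.15 for Fgfr2, -0.22 for Igf1r and 0.15 for Erbb2, but that of Pdgfra was -0.26 as the mean over its probe sets and that of Erbb3 was -0.85 with 50 added to signals. The part of lower cell numbers in these values was not tested.

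Markers of other cells and of other brain regions were also compared between the genotypes. The 10 neuron markers had a median of -0.02 and the 10 astrocyte markers one of -0.14, none of either list 2-fold, with Snap25 at 16408 in the lag mutant and 15349 in the wild-type and Slc1a2 at 11696 in the mutant and 13097 in the wild-type. Of 8 endothelial markers 6 were lower, against 48% of all measured genes, and none of the 8 differed 2-fold. Their median was -0.27, with a summed signal of 4233 in the mutant against 4936 in the wild-type. Markers of midbrain and hindbrain, regions outside the cerebrum, were above background for 6 of 12 listed genes. All 6 were lower in the mutant, against 48% of all measured genes. Past 2-fold were 5 of the 6, against 1.02% of all measured genes. The summed signal of the 6 was 399 in the mutant against 1262 in the wild-type. En2 and Slc6a5 were under background in the mutant, at 21.6 and 17.6, so their ratios depend on the background level. Slc6a3, the dopamine transporter gene, read 101.5 in the mutant and 402 in the wild-type. What such tissue contributed to the growth factor genes was not tested. Kif14, the mutated gene, read 0.733 in the mutant and 6.85 in the wild-type, under background on both, so it checks no label. The 3' to 5' ratio of the Actb control, a sign of RNA integrity, was 1.38 in the mutant and 1.55 in the wild-type.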

How the data were processed

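Cerebrum RNA of 1 lag mutant and 1 wild-type sample at postnatal day 14 was measured on 1 Affymetrix GeneChip mouse array each. The authors made the signals with the MAS5.0 algorithm at its defaults, scaling each array globally to a target that the sources used here do not give. What they deposited is 1 intensity per probe set and array on a linear scale, with no detection call beside it.

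Of 45101 probe sets, the platform annotation paired 34958 with 1 gene, which were used, and 932 with several genes; 9211 had none. Symbols were updated through the RefSeq table of GRCm38.p6, where 34754 matched. Median signals were 98.3 in the mutant and 104.5 in the wild-type. Signals were raised to background before the log2 ratio, mutant over wild-type, was taken. To set a gene beside others of similar brightness, measured genes were split into 4 groups of like size by mean signal. Genes named were the 10 genes with every probe set, family genes past 2-fold and genes among the brightest of most lists. Others were named after their values were seen. Members and lists were chosen with earlier results of these data known. The steps were tested on simulated data. Alternatives changed the background level, the probe set, the scaling, the floor and the fold. Python 3.11.15, numpy 2.4.6, pandas 2.3.3, scipy 1.17.1 and matplotlib 3.10.9 were used. The number of arrays limits the precision.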

Additional observations from a re-analysis of the deposited data

How the results depend on the processing

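No paired analysis was possible because only a single array exists for the mutant and for the wild-type, and for the same reason no array could be left out. The counts of the growth factor and receptor genes past 2-fold were 0 in each direction under all 10 alternatives. Of the 8 genes, only 6 were measured with background at the 99th percentile, where Nrg1 and Erbb2 dropped out. With unique probe sets only, again 6 were measured, without Fgfr2 and Bdnf. The median log2 ratios of the measured genes ranged from -0.26 to -0.01. The highest of these came from scaling both arrays to the same median signal, which moved the median of all measured genes to 0.10. Of 68 single values of these genes under alternatives, 67 moved by less than 0.36, the SD of the log2 ratio over all measured genes. Many of the 68 equalled the main value exactly, because the setting could not move them. A changed background level left genes above it as they were, and other settings often kept the same probe set. The count of 67 thus overstates how stable the values are. The value that moved further was that of Ntrk2, at -0.55 when its most decreased probe set was taken. Signs changed for Bdnf, to 0.04 with the same median signal, and for Ntrk2 with that probe set and, at -0.20, with the mean over all probe sets.

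Other counts moved with the setting. At 1.5-fold, 3.53% of all measured genes were lower and 4.31% higher. In the PDGF family 1 of 6 measured genes was lower at this fold. Higher were 2 of 14 in the IGF family, 2 of 17 in the FGF family and 1 of 17 adaptors and ERK cascade genes. Of 22 ERK targets 1 was lower and 7 higher, and of 23 other secreted factors 1 was lower and 2 higher. With no background level, 2 IGF genes were higher, and 2 FGF genes were lower and 2 higher, all from signals under background. In the neuregulin family, 0 were lower and 0 higher at the 99th percentile, 0 were higher with the mean over all probe sets, 2 were lower and 0 higher by the most decreased probe sets, and 0 were lower with 50 added to signals, where the log2 ratio of Erbb3 was -0.85. The median of the ERK targets ranged from 0.14 to 0.43, and 3 of them were 2-fold higher with the same median signal. Low signal limits Erbb2, Nrg1, Erbb4 and Fgf2 most.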

Other observations

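Further secreted factors that act on the oligodendrocyte lineage were also measured. Of 23 genes above background among 25 listed, 0 were 2-fold lower and 0 were 2-fold higher, against 1.02% and 0.762% of all measured genes. The 23 genes had a median log2 ratio of 0.04. Bmp4, a factor that holds back oligodendrocyte differentiation, had the lowest value, at 262 in the lag mutant and 495 in the wild-type, a log2 ratio of -0.92 by its single probe set. Cxcl12, a chemokine that attracts precursors, read 2082 in the mutant and 1341 in the wild-type, and Inhba, an activin subunit gene, read 282 in the mutant and 185 in the wild-type. Meningeal cells also make Cxcl12. The pooled pericyte and meningeal fibroblast markers had a median of 0.28, and the part of meningeal cells in the Cxcl12 value was not tested. The activin receptor genes Acvr1b and Acvr2a read 4120 and 3081 in the mutant and 3398 and 2567 in the wild-type. Shh, a morphogen of the lineage, read 365 in the mutant and 475 in the wild-type, and its receptor Ptch1 read 1524 in the mutant and 1812 in the wild-type.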
